A study of Mus musculus with 6 samples.

Results

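The RNA described here came from 35 genes of brain endothelial cells and of tight junctions, among them the claudin, occludin and junctional adhesion molecules that close the cleft between neighbouring cells, the receptors of vascular growth factors, and the efflux pumps of the blood–brain barrier. They were chosen by name as markers of brain endothelium and as junction proteins, with no solute carrier other than Mfsd2a. No measured value entered that rule, but earlier results of these data were known when the genes were chosen. All 35 were in the deposited table of 16516 genes, and all 35 were among the 13151 genes with enough counts to be tested.

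Endothelial cells of brain capillaries are joined by continuous tight junctions, in which the transmembrane proteins claudin-5, occludin and the junctional adhesion molecules are anchored to the cytoskeleton by scaffold proteins such as ZO-1. The same cells restrict vesicular transport and export lipophilic compounds back into the blood, and Wnt signals from the neural tissue help to keep this state. Microglia are not part of the capillary wall, and CD11b, the integrin by which the cells were drawn, marks myeloid cells and is no marker of endothelium.

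The cells were CD11b+ cells drawn with magnetic beads (MACS) from the cortex of male C57BL6/J mice aged 8 to 10 weeks, and the samples carry microglia as their cell type label. The NS group received normal saline and the 4LPS group received LPS, a bacterial cell wall lipid (E. coli 055:B5), at 500 µg/kg, by 4 daily intraperitoneal injections, and tissue was taken on day 7 counted from the first injection. The labels name no altered allele, and no brain ischemia preceded these samples. Each group had 3 samples of pooled RNA from 2 mice each, and the total counts ran from 15158342 to 15746606 in NS and from 15164123 to 15462396 in 4LPS. The comparison of 4LPS with NS answers how these genes stood in the sorted cells after severe peripheral inflammation. Samples are written NS1 to NS3 and 4LPS1 to 4LPS3, and values are given in that order in CPM, the share of a sample's counts that fell on a gene, scaled to a common total and for library composition. A log2 fold change is 4LPS over NS, so that a negative value is a lower level in 4LPS, and a gene passed the test when its adjusted p in edgeR was under 0.05 over all 13151 genes.

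Microglia markers were high in every sample, and endothelial RNA was present beside them at a far lower level in each. The 12 microglia markers, such as Tmem119, P2ry12 and Cx3cr1, summed to between 47812 and 50387 CPM in NS and between 46958 and 47633 CPM in 4LPS, without overlap. Of the 12, 1 passed the test as lower and 2 as higher, against 6.43% and 9.95% of all genes tested. At an unadjusted p under 0.05, 6 were lower and 3 higher. DESeq2 called 7 lower and 3 higher, and limma-voom called 3 lower and 2 higher. In 7 of the 12 all 4LPS values lay under all NS values, and in 4 above them, against 17.5% and 19.9% of all genes tested. P2ry12 had a log2 fold change of -0.53 (edgeR adjusted p = 0.00688). Trem2 and Aif1 had 0.27 and 0.20 (edgeR adjusted p = 0.0194 and 0.0332), so the sum hides opposite directions. The 12 genes that define endothelium best (Cldn5, Pecam1, Cdh5, Flt1, Tek, Kdr, Ly6c1, Vwf, Tie1, Emcn, Erg and Sox17) summed to 453, 362 and 727 CPM in NS and to 192, 238 and 407 CPM in 4LPS. None of the 12 endothelial markers was at 0 in any sample. NS3 had the highest endothelial sum and 4LPS3 lay within the NS range, so the highest sample of a group had 2.01 times the lowest in NS and 2.12 times in 4LPS, against 1.05 and 1.01 times for the microglia markers. In a bulk sample fewer endothelial cells and less of an RNA per endothelial cell cannot be told apart.

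Markers of the other cells of the vessel wall followed the same order of samples. The 10 pericyte markers summed to 137, 101 and 219 CPM in NS and 73.7, 86.5 and 177 CPM in 4LPS, with no marker at 0 in all samples. The 6 smooth muscle markers summed to 190, 159 and 329 CPM in NS and 92.9, 155 and 182 CPM in 4LPS. By edgeR 0 of the 10 pericyte genes and 0 of the 6 smooth muscle genes passed the test, while 3 and 2 of them were lower at an unadjusted p under 0.05, DESeq2 called 2 and 1, and limma-voom called 0 of either list. The 11 astrocyte markers summed to between 309 and 322 CPM in NS and between 220 and 255 CPM in 4LPS. Of these 11, 5 passed the test as lower, against 6.43% of all genes tested. The 9 choroid plexus markers ranged most between samples of 1 group, at 6740, 5835 and 667 CPM in NS and 2269, 2.52 and 547 CPM in 4LPS. The part of these cell types in the results on the 35 genes was not tested.

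**Figure D1:**
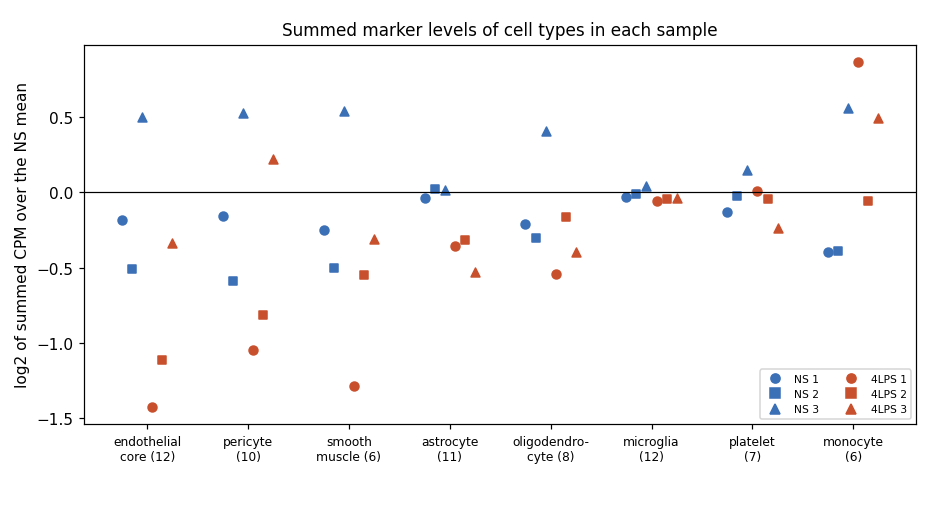
Summed CPM of marker genes of 8 cell types in each sample, as log2 over the NS mean of that list; the number of genes stands in brackets, blue is NS, red is 4LPS, and the symbol gives the sample number. The endothelial, pericyte and smooth muscle sums are highest in NS3 and lowest in 4LPS1, while the microglia sums lie between 46958 and 50387 CPM in all 6 samples.

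The stretches upstream of 5 genes are shown because the fold changes of the members had 1 sign, and because these 5 span junction, receptor, surface and transcription factor genes. They are taken from the RefSeq promoter table of the GRCm38.p6 build, which had an entry for 23 of the 35 genes, and are placed on the GRCm39 build by an exact match. Each is read 5′ to 3′ on the strand of the gene, is cut to the part that overlaps no exon, and lies within 250 bases before the start in that table. The 5 stretches are chr16:18595347-18595596 on the plus strand for Cldn5, chr9:71678885-71679134 on the minus strand for Cgnl1, chr5:147662827-147663071 on the minus strand for Flt1, chr3:137046589-137046793 on the plus strand for Emcn and chr16:95260218-95260457 on the minus strand for Erg. Capitals mark AGGAAG, a core sequence of the ETS factors that include ERG, on either strand (CTTCCT on the other), and TATAAA, the TATA box, on either strand.
Cldn5 promoter: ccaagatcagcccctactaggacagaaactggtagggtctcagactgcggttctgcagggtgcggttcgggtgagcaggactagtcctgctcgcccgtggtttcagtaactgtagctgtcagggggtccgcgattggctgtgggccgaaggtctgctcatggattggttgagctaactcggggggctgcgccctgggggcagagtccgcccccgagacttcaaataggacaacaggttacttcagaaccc
Cgnl1 promoter: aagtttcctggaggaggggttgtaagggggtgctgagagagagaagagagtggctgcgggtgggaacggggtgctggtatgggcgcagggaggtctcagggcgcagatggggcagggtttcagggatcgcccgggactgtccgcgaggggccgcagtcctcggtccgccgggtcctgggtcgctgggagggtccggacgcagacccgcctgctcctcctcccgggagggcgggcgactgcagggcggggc
Flt1 promoter: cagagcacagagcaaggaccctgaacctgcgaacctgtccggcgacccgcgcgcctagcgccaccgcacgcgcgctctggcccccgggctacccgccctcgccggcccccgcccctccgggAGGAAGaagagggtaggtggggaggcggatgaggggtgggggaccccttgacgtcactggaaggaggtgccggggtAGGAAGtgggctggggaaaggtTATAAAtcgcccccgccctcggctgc
Emcn promoter: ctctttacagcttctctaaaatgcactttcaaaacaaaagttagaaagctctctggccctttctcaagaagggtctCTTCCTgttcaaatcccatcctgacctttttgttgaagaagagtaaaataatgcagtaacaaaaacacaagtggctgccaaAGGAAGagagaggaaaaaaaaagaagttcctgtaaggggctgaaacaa
Erg promoter: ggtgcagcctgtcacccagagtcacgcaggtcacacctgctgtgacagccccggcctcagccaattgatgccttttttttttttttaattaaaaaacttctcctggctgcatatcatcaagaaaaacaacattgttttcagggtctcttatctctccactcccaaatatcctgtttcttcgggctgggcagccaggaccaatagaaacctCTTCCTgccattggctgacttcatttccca
Flt1 held AGGAAG at 2 places and a TATA box, Emcn held AGGAAG once on each strand, Erg held it once, and the stretches of Cldn5 and Cgnl1 held neither sequence. Shares were taken over the first promoter listed for each gene, which need not be the promoter of the stretches shown. In its 250 bases before the start, AGGAAG was present in 11 of the 23 members with an entry (47.8%) and in 7879 of all 27025 promoters (29.2%). TATAAA was present in 2 of the 23 members (8.7%) and in 3504 of the 27025 promoters (13%). These matches describe letters and say nothing of binding, and where they are absent in these windows no more follows.

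All 35 genes had a log2 fold change below 0, where 52.7% of all genes tested did. Of the 35, 10 passed the test as lower in 4LPS, a share to be read against 6.43% of all genes tested: Ocln, Jam2, Pecam1, Tjp1, Cgnl1, Kdr, Mfsd2a, Emcn, Itm2a and Cobll1. By edgeR 0 of the 35 passed as higher (0 at an unadjusted p under 0.05, 0 by DESeq2 and 0 by limma-voom), where 9.95% of all genes tested did. The median log2 fold change of the 35 was -0.96, with a range from -1.57 to -0.13, while the median over all genes tested was -0.02. In 13 of the 35 the 3 values of 4LPS all lay under the 3 values of NS, which was true of 17.5% of all genes tested, and 13 had a log2 fold change below -1, against 5.98% of all genes. At an unadjusted p under 0.05, 25 of the 35 were lower, against 16.1% of all genes.

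The genes that passed had smaller standard errors than the others, at a similar size of difference. The median log2 fold change was -0.96 in the 10 that passed and -0.90 in the 25 that did not. The standard errors had a median of 0.21 in those that passed (range 0.05 to 0.38) and 0.39 in those that did not (range 0.08 to 0.53), and in 15 of the 25 the 95% interval of the log2 fold change lay below 0. The number that passed as lower depended on single samples: it was 4 without NS1, 10 without NS2, 8 without NS3, 6 without 4LPS1, 5 without 4LPS2 and 17 without 4LPS3. The median of the 35 ran from -1.35 without 4LPS3 to -0.60 without NS3, and in each of these 6 fits all 35 were below 0.

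**Figure D2:**
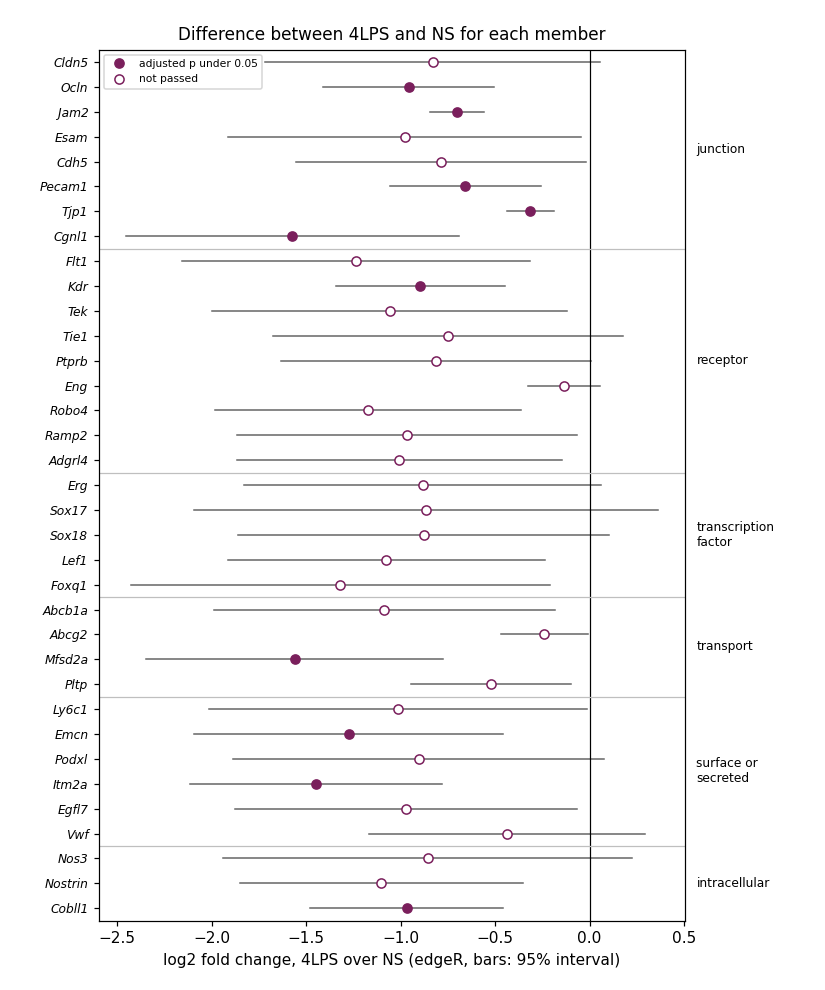
Log2 fold change of 4LPS over NS for each of the 35 genes, by role, with the 95% interval from edgeR; filled points are the 10 genes with an adjusted p under 0.05. All points lie below 0, from -1.57 for Cgnl1 to -0.13 for Eng, and the narrowest intervals are those of Tjp1 and Jam2.

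Of the 8 junction genes, 5 passed the test as lower and 3 did not, where 6.43% of all genes tested passed as lower. Jam2, which encodes junctional adhesion molecule B (chr16:84570764-84623269 in GRCm39, 9 exons), had 148, 141 and 163 CPM in NS and 92.6, 93.2 and 91.6 CPM in 4LPS. The groups did not overlap, each varied little, and the log2 fold change was -0.70 ± 0.06 (SE, edgeR adjusted p = 2.85e-04). Tjp1 encodes ZO-1, the scaffold under the junction, which many cell types express (chr7:64945898-65177529, 27 exons), and it stood at 428, 413 and 454 CPM in NS and 352, 357 and 332 CPM in 4LPS. This was the smallest difference among the genes that passed, at -0.31 ± 0.05 (edgeR adjusted p = 0.00786), with no overlap. Jam2 and Tjp1 passed in each of the 6 fits that left out 1 sample. The astrocyte sum, which separated the groups in the same way, stands above, and its part in these 2 genes was not tested.

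Ocln encodes occludin (chr13:100630334-100689535, 9 exons) and was read at 24.0, 17.7 and 26.0 CPM in NS and at 12.9, 8.77 and 13.2 CPM in 4LPS. The highest 4LPS value stayed under the lowest NS value, and the difference was -0.96 ± 0.20 on the log2 scale (edgeR adjusted p = 0.0152). Without NS1 it was -0.91 and did not pass, and the adjusted p over the alternative fits ran from 4.55e-05 to 0.0613. Pecam1, or CD31, an adhesion protein of endothelial junctions that platelets and leukocytes also carry (chr11:106543689-106641454), had 85.5, 71.9 and 108 CPM in NS and 48.1, 51.7 and 68.3 CPM in 4LPS. Its groups lay apart, with the highest 4LPS value close to the lowest NS value, and it was lower by -0.66 ± 0.17 on the log2 scale (edgeR adjusted p = 0.0386). It did not pass without NS1 (-0.68), NS3 (-0.49), 4LPS1 (-0.55) or 4LPS2 (-0.59), and its adjusted p over the alternatives ran from 2.29e-04 to 0.115. The platelet markers summed to between 177 and 215 CPM in NS and between 165 and 195 CPM in 4LPS, so that their groups overlapped.

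Cgnl1 had a pattern of its own. It encodes paracingulin, a protein of the cytoplasmic plaque of junctions in epithelia as well as endothelia (chr9:71533791-71678884, 19 exons). The values were 99.4, 84.1 and 47.9 CPM in NS and 33.4, 12.4 and 31.9 CPM in 4LPS, so that NS3, the highest sample for 33 of the 35 genes, was the lowest NS sample here. The groups did not overlap and the log2 fold change was -1.57 ± 0.38 (edgeR adjusted p = 0.0293). The choroid plexus sum had the same order of samples in NS, with NS1 at 6740 CPM and NS3 at 667 CPM, and was highest in 4LPS1 and lowest in 4LPS2, as Cgnl1 was, and its part in this result was not tested. Without NS1 (-1.35), NS2 (-1.50) or 4LPS3 (-1.74) Cgnl1 did not pass, and its adjusted p over the alternatives ran from 0.0095 to 0.101.

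Claudin-5, the main claudin of brain capillaries, did not pass the test. Cldn5 (chr16:18595597-18597012, 1 exon) had 51.0, 39.3 and 82.9 CPM in NS and 20.4, 24.9 and 52.1 CPM in 4LPS. The 4LPS3 value lay above NS1 and NS2, and the log2 fold change of -0.83 ± 0.38 had a 95% interval from -1.72 to 0.06 (edgeR adjusted p = 0.171). Esam, an adhesion molecule of endothelial cells and platelets, had 13.03, 11.2 and 22.0 CPM in NS and 4.38, 6.19 and 12.9 CPM in 4LPS, and a log2 fold change of -0.98 ± 0.40 (edgeR adjusted p = 0.135). Cdh5, which encodes VE-cadherin of the adherens junction, had 25.6, 21.9 and 39.7 CPM in NS and 10.9, 14.2 and 25.4 CPM in 4LPS, and a log2 fold change of -0.79 ± 0.33 (edgeR adjusted p = 0.140). In all 3 genes the 4LPS3 value was within the NS range, and without 4LPS3 each passed, at -1.34 for Cldn5, -1.53 for Esam and -1.20 for Cdh5, with adjusted p over the alternatives from 0.00709 to 0.385, from 0.00889 to 0.2997 and from 0.0096 to 0.305.

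**Figure D3:**
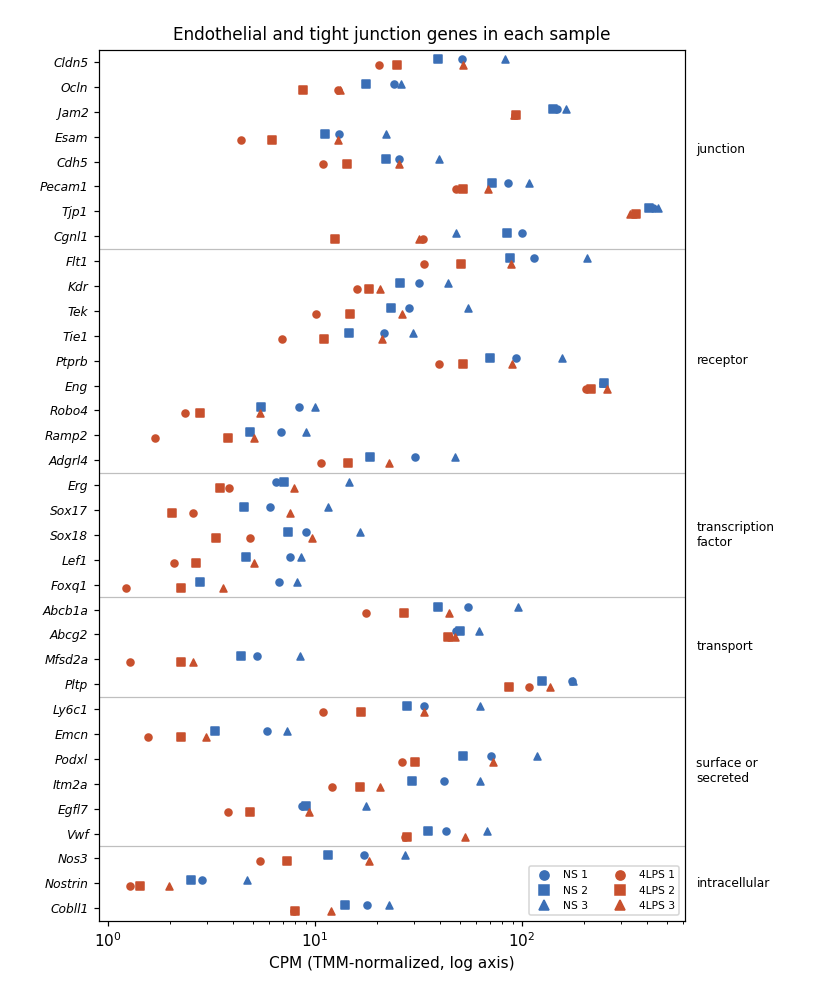
CPM of each of the 35 genes in each sample on a log axis, grouped by role; blue is NS, red is 4LPS, and the symbol gives the sample number. NS3 is the highest sample in 33 genes and 4LPS1 the lowest in 26, while Jam2, Tjp1, Eng and Abcg2 vary by less than 1.5 times within each group.

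Of the 9 receptor genes, 1 passed the test as lower, against 6.43% of all genes tested. Kdr encodes VEGFR2, the main signalling receptor for VEGF-A in endothelium (chr5:76093487-76139884, 30 exons), and had 31.8, 25.8 and 43.8 CPM in NS and 15.9, 18.1 and 20.5 CPM in 4LPS. All 3 NS values were above all 3 4LPS values, and the log2 fold change was -0.90 ± 0.19 (edgeR adjusted p = 0.0188). It did not pass without NS1 (-0.94), 4LPS1 (-0.80) or 4LPS2 (-0.88), with adjusted p over the alternatives from 3.54e-05 to 0.0599. Flt1, the VEGF receptor that acts largely as a trap for the ligand, had 115, 87.5 and 205 CPM in NS and 33.6, 50.6 and 88.5 CPM in 4LPS. Its 4LPS3 value was just above NS2, and the log2 fold change of -1.24 ± 0.40 did not pass (edgeR adjusted p = 0.0704).

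The angiopoietin receptor pair and its phosphatase gave overlapping groups. Tek, which encodes the receptor Tie2, had 28.6, 23.2 and 54.9 CPM in NS and 10.1, 14.8 and 26.3 CPM in 4LPS, and a log2 fold change of -1.06 ± 0.41 (edgeR adjusted p = 0.113). Its partner Tie1 had 21.5, 14.6 and 29.6 CPM against 6.88, 11.1 and 21.2 CPM, and a log2 fold change of -0.75 ± 0.40 (edgeR adjusted p = 0.224). Ptprb encodes VE-PTP, the phosphatase that acts on Tie2, and had 93.2, 70.0 and 156 CPM in NS and 39.7, 52.1 and 89.6 CPM in 4LPS, with a log2 fold change of -0.81 ± 0.35 (edgeR adjusted p = 0.151). In each of these 3 genes the 4LPS3 value lay above the NS2 value.

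Eng, the endoglin co-receptor of the TGF-beta family, which myeloid cells can also carry, differed least of all 35. It stood at 246, 248 and 247 CPM in NS and at 203, 215 and 257 CPM in 4LPS. The highest value of all was that of 4LPS3, and the log2 fold change was -0.13 ± 0.08, with a 95% interval from -0.33 to 0.06 (edgeR adjusted p = 0.284). Robo4, a guidance receptor that stabilises vessels, had 8.37, 5.47 and 10.0 CPM in NS and 2.36, 2.79 and 5.42 CPM in 4LPS. Its groups did not overlap, by a narrow gap between NS2 and 4LPS3, and the log2 fold change of -1.17 ± 0.35 missed the threshold (edgeR adjusted p = 0.0568). Ramp2, a part of the adrenomedullin receptor, and Adgrl4, an adhesion G protein-coupled receptor, had log2 fold changes of -0.97 ± 0.39 and -1.01 ± 0.37 (edgeR adjusted p = 0.126 and 0.102), and both had overlapping groups. Without 4LPS3, Flt1 (-1.68), Eng (-0.23) and Robo4 (-1.61) passed, and over the alternatives their adjusted p ran from 0.00355 to 0.181, from 0.0348 to 0.668 and from 0.00837 to 0.161.

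None of the 5 transcription factor genes passed in edgeR, while 2 of them were lower at an unadjusted p under 0.05, DESeq2 called 2 and limma-voom called 0. Lef1, a nuclear effector of Wnt signals, had 7.55, 4.65 and 8.55 CPM in NS and 2.09, 2.65 and 5.09 CPM in 4LPS. The groups overlapped between NS2 and 4LPS3, and the log2 fold change was -1.08 ± 0.36 (edgeR adjusted p = 0.0802). Foxq1, a forkhead factor, had 6.67, 2.77 and 8.18 CPM in NS and 1.21, 2.24 and 3.59 CPM in 4LPS, with a log2 fold change of -1.32 ± 0.48 (edgeR adjusted p = 0.0988). It had 18 counts in 4LPS1, the lowest count of any of the 35 genes in any 1 sample.

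The endothelial ETS factor gene Erg and the SoxF genes Sox17 and Sox18 had log2 fold changes of -0.88 ± 0.41, -0.86 ± 0.53 and -0.88 ± 0.42 (edgeR adjusted p = 0.172, 0.285 and 0.187). Erg had 6.48, 7.10 and 14.6 CPM in NS and 3.84, 3.47 and 7.93 CPM in 4LPS, Sox17 had 6.04, 4.53 and 11.5 CPM against 2.56, 2.04 and 7.53 CPM, and Sox18 had 9.0, 7.36 and 16.4 CPM against 4.86, 3.33 and 9.63 CPM. In all 3 the 4LPS3 value exceeded NS1 and NS2, and NS3 was the highest sample. Without 4LPS3 Lef1 passed at -1.53, and without NS2 Foxq1 passed at -1.66. Over the alternatives the adjusted p of Lef1 ran from 0.0254 to 0.208 and that of Foxq1 from 0.0270 to 0.228.

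Of the 4 transport genes, 1 passed as lower, against 6.43% of all genes tested. Mfsd2a, the transporter of lysophospholipid-bound omega-3 fatty acids that also restrains vesicle transport across brain endothelium (chr4:122840643-122855244, 14 exons), had 5.22, 4.40 and 8.43 CPM in NS and 1.28, 2.24 and 2.58 CPM in 4LPS. Every 4LPS value lay under every NS value, and the log2 fold change of -1.56 ± 0.34 corresponds to a level 2.95-fold lower (edgeR adjusted p = 0.0194). Its counts were low, from 19 to 38 in the 4LPS samples. It missed the threshold without 4LPS2 (-1.62), with adjusted p from 5.26e-04 to 0.0558 over the alternatives.

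The other 3 transport genes did not pass. Abcb1a, which encodes the efflux pump P-glycoprotein, had 54.5, 39.4 and 95.1 CPM in NS and 17.7, 26.9 and 44.3 CPM in 4LPS, with a log2 fold change of -1.09 ± 0.39 (edgeR adjusted p = 0.0956). Abcg2 encodes the efflux pump BCRP, and it had 48.0, 50.1 and 61.7 CPM in NS and 44.3, 43.7 and 47.3 CPM in 4LPS. Its groups did not overlap, by less than 1 CPM between 4LPS3 and NS1, and the log2 fold change was -0.24 ± 0.10 (edgeR adjusted p = 0.135). Pltp, a phospholipid transfer protein of blood and brain, had 175, 125 and 175 CPM in NS and 108, 86.2 and 136 CPM in 4LPS, with a log2 fold change of -0.52 ± 0.18 (edgeR adjusted p = 0.0892). Among the 35 genes Pltp had the highest level per transcript length in NS, at a mean of 107 FPKM, followed by Eng at 80.9 and Ly6c1 at 75.7 FPKM, and Lef1 had the lowest at 2.25 FPKM.

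Of the 6 genes for surface or secreted proteins, 2 passed as lower, against 6.43% of all genes tested. Itm2a, a small membrane protein of brain endothelium (chrX:106418945-106447419, 6 exons), had 42.0, 29.4 and 62.7 CPM in NS and 12.1, 16.5 and 20.5 CPM in 4LPS. The groups lay well apart, with a log2 fold change of -1.45 ± 0.29, or 2.73-fold lower (edgeR adjusted p = 0.0139), and Itm2a passed in all 6 fits that left out 1 sample. Emcn, the sialomucin endomucin of capillary and venous endothelium (chr3:137046794-137138999), had 5.85, 3.27 and 7.31 CPM in NS and 1.55, 2.24 and 2.98 CPM in 4LPS, and a log2 fold change of -1.28 ± 0.35 (edgeR adjusted p = 0.0461). The gap between NS2 and 4LPS3 was small, and Emcn passed in 1 of the 6 fits that left out a sample, that without NS2: it was -1.23 without NS1, -1.01 without NS3, -1.06 without 4LPS1, -1.26 without 4LPS2 and -1.51 without 4LPS3. Its adjusted p over the alternatives ran from 0.0093 to 0.129.

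Ly6c1, a lipid-anchored surface protein of brain endothelium, had 33.7, 27.7 and 62.4 CPM in NS and 10.9, 16.7 and 33.7 CPM in 4LPS, with a log2 fold change of -1.01 ± 0.43 (edgeR adjusted p = 0.145). Podxl, the sialomucin podocalyxin of the luminal surface, had 71.0, 51.6 and 119 CPM against 26.2, 30.5 and 72.2 CPM, with a log2 fold change of -0.90 ± 0.42 (edgeR adjusted p = 0.177), and without 4LPS3 it passed at -1.49 (adjusted p over the alternatives from 0.00574 to 0.4004). Egfl7, a protein that endothelial cells secrete into the matrix, had a log2 fold change of -0.97 ± 0.39 (edgeR adjusted p = 0.126). Its values were 8.69, 8.99 and 17.5 CPM in NS and 3.78, 4.83 and 9.36 CPM in 4LPS, and in all 3 genes the 4LPS3 value lay within the NS range. Vwf encodes von Willebrand factor, which tethers platelets, and had 42.7, 35.1 and 68.1 CPM in NS and 27.2, 27.7 and 52.8 CPM in 4LPS. Its log2 fold change of -0.44 ± 0.31 had a 95% interval from -1.17 to 0.29 (edgeR adjusted p = 0.360).

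Of the 3 genes for intracellular proteins, 1 passed as lower, against 6.43% of all genes tested. This was Cobll1, a relative of the actin nucleator cordon-bleu (chr2:64918068-65069747). It had 17.9, 14.0 and 22.7 CPM in NS and 7.89, 8.02 and 11.9 CPM in 4LPS, with no overlap and a log2 fold change of -0.97 ± 0.22 (edgeR adjusted p = 0.0238). It did not pass without NS1 (-0.98), 4LPS1 (-0.86) or 4LPS2 (-0.86), with adjusted p from 3.72e-04 to 0.0810 over the alternatives. Nos3, the endothelial nitric oxide synthase, had 17.3, 11.6 and 27.3 CPM in NS and 5.40, 7.34 and 18.2 CPM in 4LPS, a log2 fold change of -0.86 ± 0.47 (edgeR adjusted p = 0.232). Nostrin, which directs the traffic of that enzyme, was the least abundant by CPM, at 2.83, 2.51 and 4.71 CPM in NS and 1.28, 1.43 and 1.97 CPM in 4LPS. Its groups did not overlap, and its log2 fold change of -1.10 ± 0.32 missed the threshold (edgeR adjusted p = 0.0544). Without 4LPS3 Nos3 passed at -1.54, with adjusted p over the alternatives from 0.0270 to 0.499.

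Of the 35 genes, Abcb1a and Ly6c1 had estimated counts that were not whole numbers, in 6 and 5 samples, and each has a near-identical copy with which RSEM, the counting program, divides shared reads. Their values are uncertain for that reason. Abcb1b, the copy of Abcb1a, had 35.4, 38.0 and 40.6 CPM in NS and 51.9, 53.4 and 50.7 CPM in 4LPS, and passed the test as higher, at 0.45 ± 0.07 on the log2 scale (edgeR adjusted p = 0.00421). Ly6c2, the copy of Ly6c1 known from monocytes, had 2.33, 2.39 and 6.26 CPM in NS and 10.9, 6.12 and 7.93 CPM in 4LPS, with a log2 fold change of 1.18 ± 0.41 (edgeR adjusted p = 0.0852). In 4LPS1 both Ly6c1 and Ly6c2 were listed at 162 counts.

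The 35 genes shared an order of samples within each group as well as the difference between groups. NS3 was the highest NS sample in 33 genes and NS2 the lowest in 30, and 4LPS3 was the highest 4LPS sample in 32 and 4LPS1 the lowest in 26. In 24 genes the order was NS3, NS1, NS2 together with 4LPS3, 4LPS2, 4LPS1. The ratio of the highest to the lowest NS value ran from 1.01 in Eng to 2.96 in Foxq1 and was above 1.8 in 26 genes, of which 4 passed the test. Jam2, Tjp1, Eng and Abcg2 varied by less than 1.5 times in both groups, and 2 of these 4 passed. Together Tjp1, Eng, Pltp and Jam2, the most abundant by CPM, made up 47.2% of the summed CPM of the panel in NS and 57.1% in 4LPS.

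The summed level of the 35 genes was 2016, 1726 and 2537 CPM in NS and 1181, 1240 and 1652 CPM in 4LPS. The groups did not overlap, and the mean of 1357 ± 256 CPM in 4LPS (SD, n = 3) was 1.54-fold lower than the 2093 ± 411 CPM in NS (SD, n = 3), a log2 ratio of -0.62. The ratio ran from -0.79 without 4LPS3 to -0.46 without NS3. The sum of the 5 transcription factor genes had the log2 ratio furthest from 0 of the 6 roles, at -0.97, and the sum of the 8 junction genes the nearest, at -0.56. The junction sum held Tjp1 and Jam2 and had the narrowest groups, with 874, 799 and 943 CPM in NS and 575, 569 and 628 CPM in 4LPS.

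To see which genes differed by more or less than the panel, each sample was also scaled to its median member, so that the panel itself lies at 0 by construction. The factor of a sample was 1.35, 1.08 and 2.16 in NS and 0.49, 0.62 and 1.05 in 4LPS. In edgeR 0 of the 35 genes differed from the median member in either direction, 0 also at an unadjusted p under 0.05 and 0 by limma-voom, with 0.0076% of all genes tested called lower and 7.66% higher on this scale. The log2 differences ran from -0.65 for Cgnl1 to 0.83 for Eng, but their standard errors lay between 0.49 and 0.57. The scaling itself widened the errors of the whole table, since it spreads the genes that do not follow the panel: the median standard error over all genes tested was 0.10 on the CPM scale and 0.50 on this one. The count of 0 is therefore no result about the 35 genes, because this test could hardly have called differences of their size. With the sum of all member counts as the scale instead, 4 genes passed as lower (Cgnl1, Flt1, Itm2a and Mfsd2a), and without 4LPS3 3 passed as higher on the median scale (Abcg2, Eng and Tjp1).

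A gene near the median of the panel is held level on this scale by construction, as Cldn5 was, with scaled levels of 39.0, 37.7 and 40.2 in NS and 40.4, 38.6 and 47.6 in 4LPS. Tjp1, far from that pattern, had scaled levels of 327, 396 and 221 in NS and 699, 552 and 304 in 4LPS. The scaled groups did not overlap in 3 genes that were lower in 4LPS, against 0.19% of all genes tested, and in 3 that were higher, against 36.9%. Itm2a had scaled levels of 32.2, 28.2 and 30.4 in NS and 23.9, 25.6 and 18.7 in 4LPS, Mfsd2a had 3.997, 4.23 and 4.09 against 2.54, 3.47 and 2.36, and Flt1 had 87.8, 84.1 and 99.4 against 66.6, 78.2 and 80.9. Vwf stood at 32.7, 33.8 and 33.0 in NS and 53.9, 42.9 and 48.3 in 4LPS, with Cdh5 and Ptprb as the other two that did not overlap upward. Cdh5 and Ptprb stood at 0.16 and 0.17 on the log2 scale relative to the median member and at -0.18 and -0.19 relative to the sum of member counts, so that their direction depended on the scale. These 6 are a description of the scaled values, since none passed the test.

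**Figure D4:**
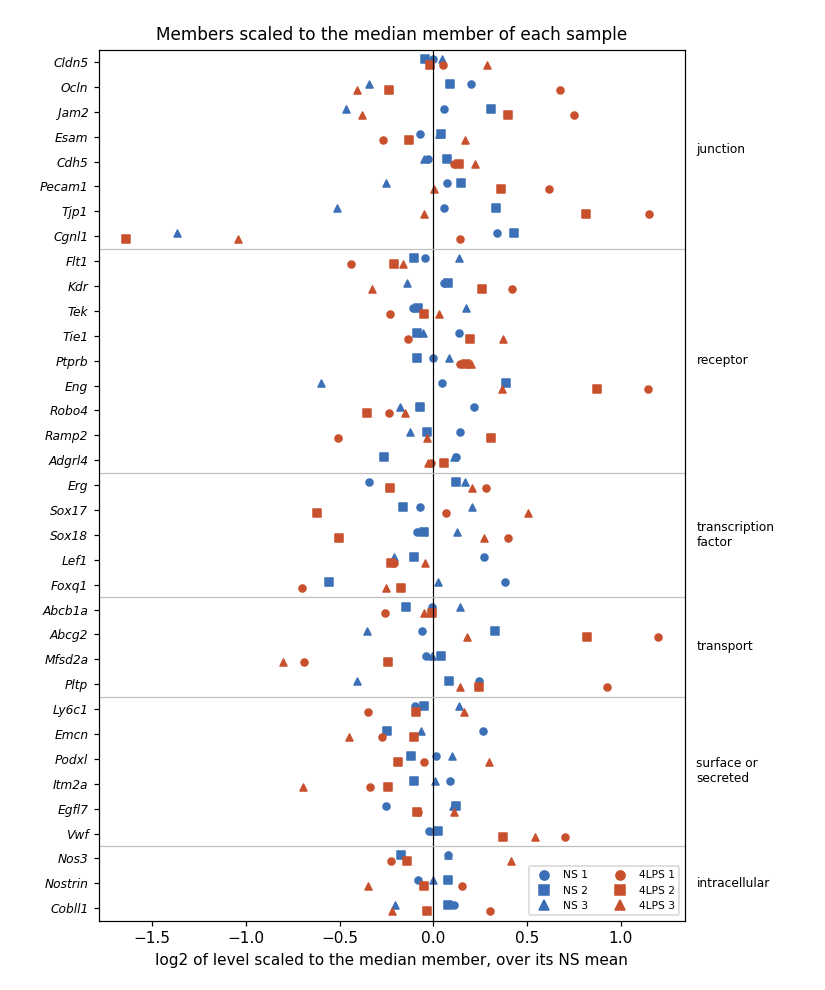
Log2 of each gene's level after every sample was scaled to its median member, over the mean of the gene in NS; blue is NS, red is 4LPS, and the symbol gives the sample number. Genes near the median of the panel lie close to 0 by construction, while Tjp1, Eng and Abcg2 lie furthest above it in 4LPS1 and Cgnl1 furthest below it in 4LPS2.

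The genes related to the panel by pathway were listed by name, also with earlier results of these data known. They were taken through the same test, 114 of them with enough counts. Of these 23 passed as lower and 11 as higher, against 6.43% and 9.95% of all genes tested, and 80 did not pass, with a median log2 fold change of -0.57. Of the 19 other junction genes, 7 passed as lower and 1 as higher, with a median of -0.56. Jam3, the junctional adhesion molecule C that binds JAM-B, had 20.1, 19.9 and 22.0 CPM in NS and 10.1, 10.6 and 8.27 CPM in 4LPS, and fell by 1.10 on the log2 scale (SE 0.12, edgeR adjusted p = 7.66e-04). Nectin2, an adhesion molecule that macrophages also carry, rose by 0.71 (SE 0.08, edgeR adjusted p = 0.00118). Jam3 and Nectin2 passed in all 19 alternative fits. The catenins Ctnna1 and Ctnnd1 fell by 0.25 and 0.22 on the log2 scale (edgeR adjusted p = 0.0152 and 0.0161), and neither passed without 4LPS1 (-0.24 and -0.21) or 4LPS2 (-0.23 and -0.21), nor Ctnnd1 without 4LPS3 (-0.21), with adjusted p over the alternatives from 0.00187 to 0.0640 and from 5.22e-04 to 0.0728.

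Wnt signalling maintains the barrier. Of 17 genes of that pathway 5 passed as lower and 1 as higher, against 6.43% and 9.95% of all genes tested. Their median log2 fold change was -1.01. Axin2, a direct target of Wnt signals, had 7.74, 5.60 and 9.17 CPM in NS and 2.83, 2.72 and 3.19 CPM in 4LPS, a log2 fold change of -1.36 ± 0.22 (edgeR adjusted p = 0.00553). Tnfrsf19, a receptor gene that Wnt signals induce, had a log2 fold change of -1.13 ± 0.20 (edgeR adjusted p = 0.00935), and both genes passed in all 19 alternative fits. The Wnt receptors Fzd4 and Fzd6 fell by 0.47 and 1.21 on the log2 scale (edgeR adjusted p = 0.0133 and 0.0156). Fzd4 did not pass without NS1 (-0.44), 4LPS1 (-0.46), 4LPS2 (-0.47) or 4LPS3 (-0.46), and Fzd6 not without NS1 (-1.18) or 4LPS2 (-1.16), with adjusted p over the alternatives from 0.00253 to 0.0617 and from 3.21e-05 to 0.0587.

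Of 18 genes of Notch signalling and arterial identity, 4 passed as lower and 1 as higher, against 6.43% and 9.95% of all genes tested. Their median log2 fold change was -0.65. Notch4, the Notch receptor of endothelium, had 28.7, 27.9 and 30.1 CPM in NS and 12.6, 12.6 and 17.3 CPM in 4LPS, and a log2 fold change of -1.03 ± 0.13 (edgeR adjusted p = 0.00222). The groups did not overlap, and the 3 NS values of Notch4 lay close together. The Notch targets Hes1 and Hey2 fell by 1.30 and 1.16 on the log2 scale (edgeR adjusted p = 0.00882 and 0.0131), while Rbpj, the DNA-binding partner of Notch in all cell types, rose by 0.47 (edgeR adjusted p = 0.00305). Hey2 did not pass without NS1 (-1.11) or 4LPS2 (-1.10), with adjusted p over the alternatives from 0.00609 to 0.0565.

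Of 12 genes of VEGF and angiopoietin signalling, 1 passed as lower and 2 as higher, against 6.43% and 9.95% of all genes tested. The median log2 fold change of these 12 was -0.21. The ligand gene Vegfa had 16.1, 13.2 and 9.61 CPM in NS and 7.35, 8.09 and 8.14 CPM in 4LPS, a log2 fold change of -0.72 ± 0.19 (edgeR adjusted p = 0.0372). It passed in 1 of the 6 fits that left out a sample, that without NS3, and was -0.54 without NS1, -0.71 without NS2, -0.67 without 4LPS1, -0.73 without 4LPS2 and -0.74 without 4LPS3, with adjusted p over the alternatives from 0.00434 to 0.114. Nrp2, a co-receptor for VEGF and semaphorins, rose by 0.51 on the log2 scale (edgeR adjusted p = 0.00141). Sh2d2a, an adaptor of VEGFR2 that T cells express, had 0.19, 0.19 and 0.06 CPM in NS and 3.71, 4.49 and 4.07 CPM in 4LPS (log2 fold change 4.73 ± 0.36, edgeR adjusted p = 1.60e-04). The 9 T and NK cell markers summed to between 2.83 and 6.14 CPM in NS and between 74.4 and 84.6 CPM in 4LPS, and the part of those cells in the level of Sh2d2a was not tested.

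Of 14 other endothelial transcription factor genes, 1 passed as lower and 0 as higher, against 6.43% and 9.95% of all genes tested. As higher, 1 was called at an unadjusted p under 0.05, 1 by DESeq2 and 0 by limma-voom. The median log2 fold change of the 14 was -0.17. The gene that passed was Nr2f2, the factor of venous identity, with a log2 fold change of -1.10 ± 0.29 (edgeR adjusted p = 0.0409). It had 8.43, 5.22 and 5.64 CPM in NS and 3.17, 1.97 and 3.86 CPM in 4LPS. Nr2f2 passed in 1 of the 6 fits that left out a sample, that without NS3, and was -0.85 without NS1, -1.23 without NS2, -1.13 without 4LPS1, -0.86 without 4LPS2 and -1.31 without 4LPS3, with adjusted p over the alternatives from 0.00975 to 0.136. Of 25 further endothelial marker genes, 5 passed as lower and 2 as higher, against 6.43% and 9.95% of all genes tested. Their median log2 fold change was -0.80. Tmem204 had 40.8, 44.4 and 44.3 CPM in NS and 22.5, 25.9 and 25.7 CPM in 4LPS and fell by 0.80 on the log2 scale (edgeR adjusted p = 5.44e-04). Hmcn1, a matrix protein, and Palmd fell by 1.70 and 1.08 (edgeR adjusted p = 0.00459 and 0.0123). Cd34, a sialomucin of endothelial and progenitor cells, had 215, 210 and 248 CPM in NS and 304, 298 and 281 CPM in 4LPS. It rose by 0.39 (edgeR adjusted p = 0.00865), and which cells held its RNA was not tested. Tmem204, Hmcn1, Palmd and Cd34 passed in every fit that left out 1 sample.

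Genes listed by name for vessel activation had a median above 0. Of 14 such genes 11 had enough counts to be tested. Sele, Selp and Ackr1 had too few, with at most 0.34 CPM in any sample. Of the 11, 4 passed as higher and 0 as lower, against 9.95% and 6.43% of all genes tested. As lower, 0 were called at an unadjusted p under 0.05, 0 by DESeq2 and 0 by limma-voom. The median log2 fold change of the 11 was 0.55. Icam2, Plvap, Angpt2 and Tnfrsf11b had log2 fold changes below 0, at -0.58, -0.51, -0.66 and -0.77, and did not pass. Cp, the ferroxidase ceruloplasmin, had 23.2, 22.7 and 45.4 CPM in NS and 101, 111 and 151 CPM in 4LPS, a log2 fold change of 1.99 ± 0.28 (edgeR adjusted p = 0.00325). Ch25h, cholesterol 25-hydroxylase, rose by 1.92 (edgeR adjusted p = 0.0134), but did not pass without NS1 (1.77). The adhesion molecule genes Vcam1 and Icam1, which leukocytes bind, rose by 0.60 and 0.40 (edgeR adjusted p = 0.0277 and 0.0397). Vcam1 did not pass without NS2 (0.51), 4LPS1 (0.63) or 4LPS3 (0.48), and Icam1 not without NS1 (0.35), NS2 (0.40), 4LPS2 (0.44) or 4LPS3 (0.28). Over the alternatives the adjusted p ran from 7.04e-04 to 0.0577 for Ch25h, from 3.55e-04 to 0.0843 for Vcam1 and from 8.66e-04 to 0.132 for Icam1. The 7 neutrophil markers summed to 863, 822 and 1144 CPM in NS and 1565, 1153 and 1367 CPM in 4LPS, without overlap by a narrow gap, with a median log2 fold change of 1.06. By edgeR 1 of the 7 passed as higher, against 9.95% of all genes tested. The 6 monocyte markers summed to between 98.5 and 191 CPM in NS and between 125 and 236 CPM in 4LPS, with a median of 0.80. By edgeR 0 of the 6 passed, while 3 were higher at an unadjusted p under 0.05, 3 by DESeq2 and 0 by limma-voom. The part of these cells in the levels of the activation genes was not tested. Myeloid cells express Icam1 and Ch25h too, and the cells that held these RNAs cannot be told apart in bulk.

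**Figure D5:**
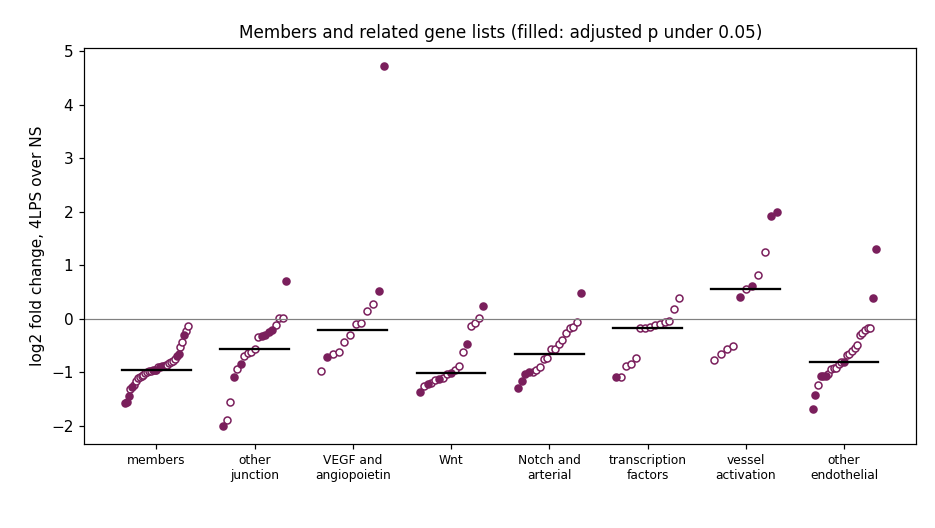
Log2 fold change of 4LPS over NS for the 35 genes and for the genes of 7 related lists; filled points have an adjusted p under 0.05 in edgeR, and the bar marks the median of each list. The median is -0.96 for the 35 genes and 0.55 for the genes of vessel activation, and 23 points of the related lists that lie below 0 are filled.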

How the data were processed

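Libraries were prepared with the Hieff NGS Ultima Dual-mode mRNA kit and read as pairs on the DNBSEQ-G400. Per the study's methods and the submitters' processing notes, reads were filtered with SOAPnuke, aligned with HISAT2 2.0.4 and Bowtie2 2.2.5 and quantified per gene with RSEM 1.2.8, and DESeq2 1.16.1 was used for the study's own comparison. The methods name the mm39 genome and the notes mm39 and mm10, and which gene annotation was used was not stated, nor whether the counting used strand, so reads of overlapping genes cannot be told apart. The deposited table holds expected counts, FPKM and TPM per sample, which the authors computed with RSEM, and the TPM values were not used. Of the expected counts 2.77% were not whole, and all were rounded. A normalized signal, the count divided by a size factor, and the authors' group means were deposited too and were not used.

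edgeR 4.0.16 (R 4.3.3) was run on the rounded counts of all genes past its default filter, with TMM factors, its quasi-likelihood F-test, and p adjusted after Benjamini-Hochberg. CPM use the same factors, and the standard error is the size of the log2 fold change over the root of F. Levels between genes are compared in FPKM. The samples were grouped by their labels, 3 NS against 3 4LPS. Each sample is a pool of 2 mice, so p-values measure the spread between pools. No library had been deposited under more than 1 sample name, as far as the counts show. The 35 genes and the lists were chosen with earlier results of these data known. All 35 genes are named; of each related list up to 4 genes that passed, with the smallest p. The depth of 15158342 to 15746606 counts per sample limits the least abundant genes, and the scripts were tested on simulated data first. DESeq2 1.42.0 and limma 3.58.1 (voom, and log2 of FPKM plus 1 or 0.1), other factors and filters, a replicate block, a gene length correction and leaving out each sample were run as alternatives. Promoters were placed on GRCm39 by exact match, and gene positions are those of GENCODE M39.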

Additional observations from a re-analysis of the deposited data

How the results depend on the processing

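None of the 35 genes turned the direction of its fold change of 4LPS over NS under any alternative. The same held for the genes named from the related lists that passed the test. Relative to the panel, 15 of the 35 changed sign with the sum of member counts in place of the median member as the scale, none of them past the threshold on either scale, and 2 to 8 changed sign when 1 sample was left out. The 35 genes passed as lower 9 times by limma-voom, 15 times by DESeq2 and without the composition factor, and 9 to 13 times with limma on FPKM, and 10 with the other factors and filters. Jam2, Tjp1 and Itm2a passed in all 19 alternatives.

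Leaving out each sample gave 4 to 17 of the 35 genes lower and 0 higher, 9 to 27 related genes lower and 7 to 14 higher, and 363 to 1215 of all genes lower and 781 to 1629 higher. Relative to the median member it gave 0 lower and 0 to 3 higher. Without the composition factor 36 related genes and 1711 of all genes were lower, against 23 and 845, since this shifts the median of all genes to -0.11 on the log2 scale. With limma on log2 of FPKM, 7 related genes were higher at either pseudocount, against 11, and of all genes 1486 were lower and 823 higher at a pseudocount of 1, 1454 and 813 at 0.1, and 1335 and 818 without a filter; the cause was not tested. On the sum of member counts as the scale, 4 members were lower than the panel, and the cause was not tested.

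Whether samples of the same number in the 2 groups were pairs is not known. Their deviations from the group means correlated at 0.47, -0.26 and 0.07, and 3 of the 6 samples correlated best with their own number. With so few samples these values do not decide it. In a fit that blocks on the number, 30 of the 35 genes and 49 related genes were lower and 3 members were higher than the median member. With the block and the length correction together it was 30 and 50. In 31 of the 35 genes NS3 and 4LPS3 were both the highest of their group, and the labels do not tie a number to a litter, batch or day.

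A gene that did not pass was not shown to be unchanged: in 22 of the 25 the 95% interval reached below -1 on the log2 scale, the exceptions being Eng, Abcg2 and Pltp.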
